A study of Mus musculus with 4 samples.

Results

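WT1 occupancy was examined at 6 genes of the renal stroma and of the renin cells that arise from it: Foxd1, Meis1 and Tbx18, which encode transcription factors, Pdgfrb, which encodes a growth factor receptor, Ren1, which encodes renin, and Lamc3, which encodes a laminin chain. They were listed by name, with earlier results of these data known. They are 6 of 21779 protein-coding genes placed on chromosomes in the gene table used. For each of them, every deposited row whose midpoint lay in the gene or within 50 kb of it was taken. That gave 17 of the 17234 regions found in both WT1 samples, 35 of the 53132 peaks of replicate 1 and 62 of the 57641 peaks of replicate 2.

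The data are chromatin immunoprecipitation followed by sequencing (ChIP-seq) on kidneys dissected from wildtype mouse embryos at E18.5, late in gestation, of a mixed background given as C57Bl6 crossed with B6DBA/F1. No treatment is named. There were 2 samples made with an antibody against WT1 and 2 made with IgG as the control, from experiments that the design text calls independent; the sources used here do not say how many embryos went into each. The IgG samples were not analysed here, so no background from control antibody stands beside the values below.

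The stroma is the connective tissue around the nephrons. Cells that express Foxd1 are its progenitors, and they give rise to interstitial fibroblasts, pericytes, the mesangium of the glomerulus, vascular smooth muscle and the renin cells of the arteriole wall. Renin cells sit beside the glomerulus and release the enzyme that starts the angiotensin cascade. WT1 is a zinc-finger transcription factor best known in the nephron lineage, in progenitors and podocytes. Whole kidneys were used, so the lists do not show in which cells a site was occupied, and occupancy in more cells cannot be told apart from stronger occupancy in each cell.

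Each replicate list gives 1 value per peak, between 0 and 0.0499, taken as a p-value or a q-value and called the significance value. The table of both replicates gives a value per region, read here as an irreproducible discovery rate (IDR), an error rate for finding the region in both. A region is called reproducible where its IDR was at most 0.05, and 25.6% of all regions were. Where several peaks of a replicate fell in a region, the smallest value is given. There were n = 2 samples of a single group, so no groups could be tested. Read counts are not part of the lists, which leaves depth unknown. Beyond the value of each peak, the agreement of the replicates is the only measure of error.

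Of the 6 genes, 5 had at least 1 reproducible region in the gene or within 50 kb, against 26.2% of all protein-coding genes. Because the 6 were chosen with earlier results known, this count is a description and not independent evidence of an excess. Foxd1 and Pdgfrb had 3 each, and Ren1, Meis1 and Lamc3 had 1 each. Tbx18 had 0. The median was 1 over the 6 genes and 0 over all genes. Only 2.91% of protein-coding genes had 3 or more. The genes differ in length, from 2.46 kb for Foxd1 to 139 kb for Meis1, and the window of a longer gene is wider. Foxd1, with 3 regions, was the shortest of the 6, and Meis1, with 1, was the longest. The share of protein-coding genes no longer than the gene was 13.5% for Foxd1, 35.3% for Ren1 and 64.1% for Tbx18. It was 72.4% for Pdgfrb, 81.4% for Lamc3 and 92.7% for Meis1. Whether length bears on the counts was not tested.

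**Figure D1:**
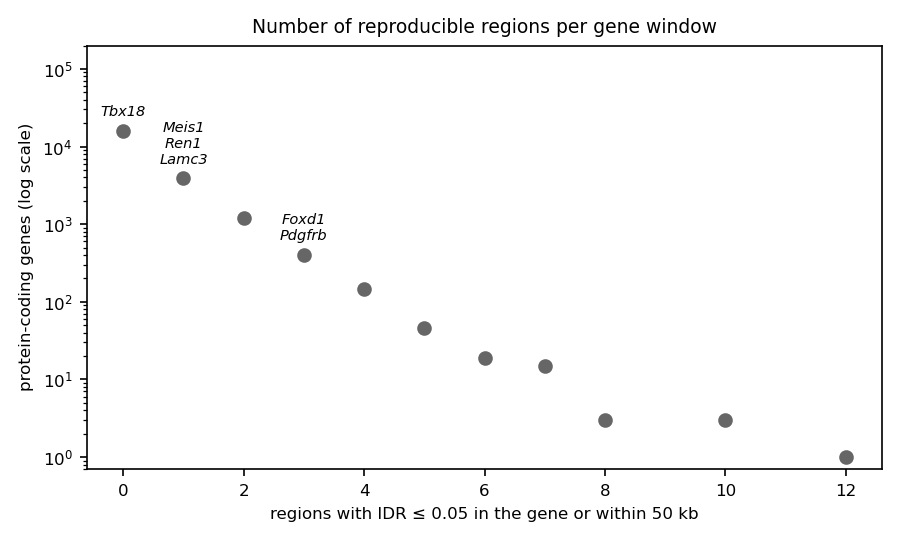
Number of protein-coding genes (vertical axis, log scale) by the number of reproducible regions in the gene or within 50 kb (horizontal axis), with the 6 genes named above the point for their number. Foxd1 and Pdgfrb stand at 3, Meis1, Ren1 and Lamc3 at 1 and Tbx18 at 0; no gene has 9 or 11, so those points are missing.

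None of the 9 reproducible regions lay within 1 kb of an end of the gene it was counted for. Their median distance to the nearer end was 10.3 kb. Along the genes, 3 were inside (1 in Meis1, and 2 in Pdgfrb), 3 lay downstream of Foxd1, 1 lay upstream of Ren1, and 2 lay inside a neighbouring gene, Cdx1 beside Pdgfrb and Aif1l beside Lamc3. Their widths ran from 224 to 654 bp with a median of 416 bp, against 372 bp for all reproducible regions. The gene table used gives no exons, so whether an inside region is exonic or intronic is not stated.

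**Figure D2:**
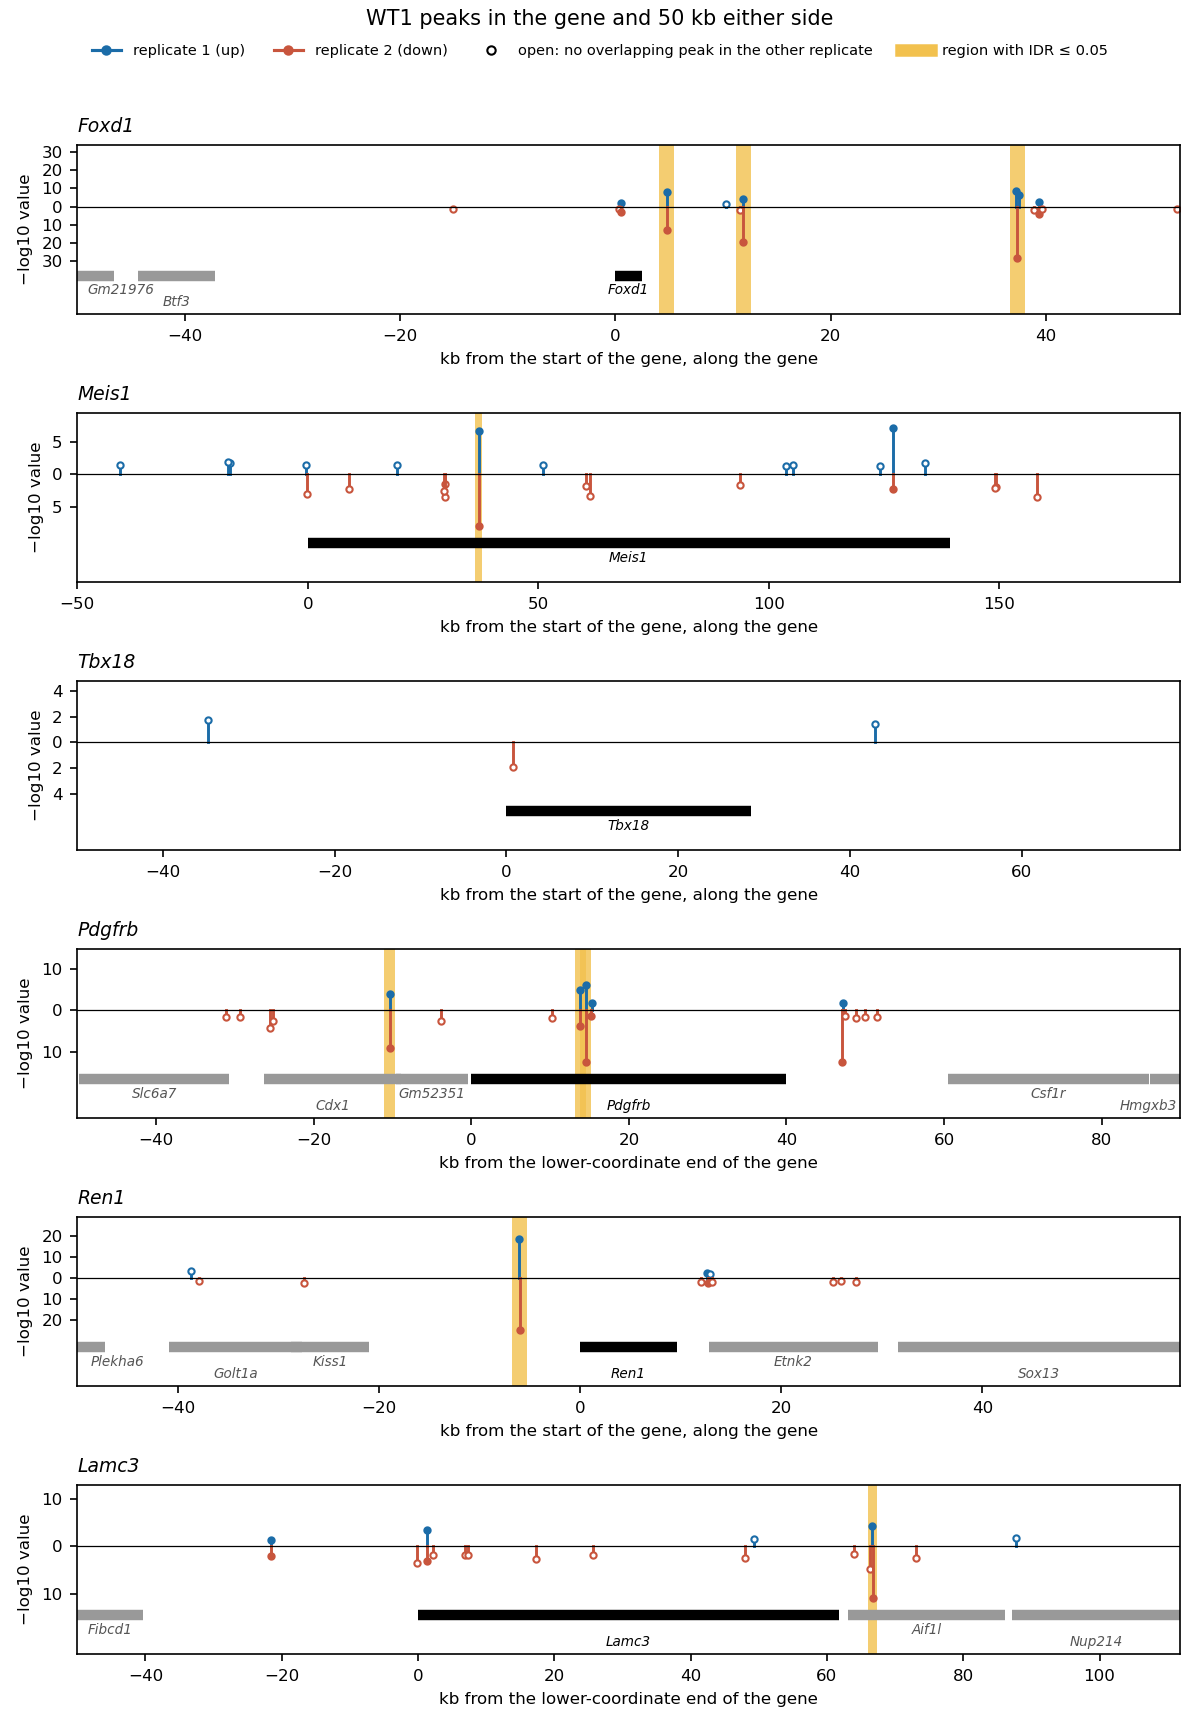
WT1 peaks around the 6 genes, with −log10 of the significance value upward for replicate 1 and downward for replicate 2 (vertical axis, a scale of its own in each panel) against distance in kb from the start of the gene, or from its lower-coordinate end for Pdgfrb and Lamc3 (horizontal axis). Black bars are the named gene, grey bars other protein-coding genes, open points peaks without an overlapping peak in the other replicate, and yellow bands reproducible regions, drawn wider than they are. The tallest stems of both replicates stand away from the gene's own start, at Ren1 6.03 kb before it and at Foxd1 37.3 kb after it.

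The promoter sequences of the genes whose annotated start is also the outermost end of the gene are shown first, because the reproducible regions lay elsewhere: no peak of either replicate touched the promoter windows of Foxd1, Ren1 or Tbx18. The fourth sequence is the part of the promoter window of Etnk2, an ethanolamine kinase gene and the downstream neighbour of Ren1, that precedes the gene. A region found in both replicates covers that sequence, its last bases through replicate 2 only. All are from RefSeq (GRCm38.p6, the assembly behind mm10), 5′ to 3′ on the gene's strand, and capitals mark agct and ttaa, the sites at which AluI and MseI cut.
Foxd1, chr13:98353995-98354244, plus strand: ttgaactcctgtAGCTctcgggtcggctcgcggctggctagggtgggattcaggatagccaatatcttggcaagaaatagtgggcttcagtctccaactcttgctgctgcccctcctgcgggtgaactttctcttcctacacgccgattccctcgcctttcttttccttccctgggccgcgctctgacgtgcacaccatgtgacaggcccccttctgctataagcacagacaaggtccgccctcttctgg
Ren1, chr1:133350424-133350673, plus strand: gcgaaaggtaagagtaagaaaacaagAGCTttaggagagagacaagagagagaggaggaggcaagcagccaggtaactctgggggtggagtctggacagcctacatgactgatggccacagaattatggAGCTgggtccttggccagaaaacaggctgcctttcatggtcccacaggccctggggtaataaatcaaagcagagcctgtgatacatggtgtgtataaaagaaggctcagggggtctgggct
Tbx18, chr9:87731261-87731510, minus strand: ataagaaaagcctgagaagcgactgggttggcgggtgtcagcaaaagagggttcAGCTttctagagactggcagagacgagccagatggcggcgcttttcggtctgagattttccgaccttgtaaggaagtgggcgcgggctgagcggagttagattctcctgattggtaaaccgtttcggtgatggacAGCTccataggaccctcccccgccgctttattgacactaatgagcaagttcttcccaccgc
Etnk2, chr1:133363322-133363462, plus strand: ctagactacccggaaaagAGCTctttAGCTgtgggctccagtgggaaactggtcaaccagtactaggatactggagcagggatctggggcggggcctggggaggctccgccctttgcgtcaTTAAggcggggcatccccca

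Per the labels' protocols, restriction enzymes fragmented the DNA ahead of adapter ligation, MseI together with either AluI or HaeIII. In the Etnk2 sequence the replicate 1 peak ended inside the capital TTAA, at base 133363445, where a fragment cut by MseI ends once it is filled in. Past the printed bases, a replicate 1 peak start (133363568) and the replicate 2 peak end (133363505) were at no AluI, HaeIII or MseI site. The promoter windows, 250 bases before to 50 after a start, were searched on both strands for the WT1-like motif GCGTGGGNG, its looser form GNGTGGGNG (which includes the former), the EGR-like motif GCGGGGGCG and the repeat TCCTCCTCC, where N is any base. None of the 4 motifs was found in the windows of Foxd1, Ren1 and Tbx18. The looser form was found once in the Meis1 window, 89 bases before the start used for that window (19018969). That start and the match lie inside the gene, whose outermost start is 19019651. The Etnk2 window held the looser form once and also the EGR-like motif. Of 17492 promoter windows of protein-coding genes, 1 per gene, 2.3% held the first motif, 15.1% the looser form, 3.85% the EGR-like motif and 3.15% the repeat. The looser match at Etnk2 begins in the last bases shown and runs past them, and the EGR-like match lies wholly past them.

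Foxd1 encodes a forkhead transcription factor that marks the stromal progenitors (gene ID 15229, chromosome 13, 98354245 to 98356705, plus strand). Its window held 5 regions found in both replicates, 3 of them reproducible, all downstream of the gene. The one with the lowest IDR was the farthest, 34.9 kb past the end (98391257 to 98391910, IDR 1.63e-05). Its significance values were 2.31e-09 in replicate 1 and 5.55e-29 in replicate 2. Replicate 1 had 2 peaks there and replicate 2 a single one with the same outer edges, so the region of 654 bp began and ended at the same bases in both lists. It ranked within the first 2.83% of replicate 1 and the first 1.23% of replicate 2.

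The nearest of the Foxd1 regions lay 2.31 kb past the end (98358901 to 98359124, IDR 9.45e-04), with values of 1.38e-08 and 1.89e-13 in replicates 1 and 2. The next lay 9.43 kb past the end (98365980 to 98366286, IDR 0.00191), with values of 6.26e-05 and 2.93e-20. The replicates thus ordered the regions differently: the middle one was the weakest of the 3 in replicate 1 and the second strongest in replicate 2. All 3 lay within 33 kb of sequence.

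The remaining Foxd1 regions were weaker in both lists. One lay inside the gene, 526 bp from its start (98354736 to 98354807, IDR 0.369), with values of 0.0136 and 0.00122. It was 72 bp wide, the narrowest of the 17. The other (98393514 to 98393710) was 1.6 kb beyond the strongest region, with values of 0.00196 and 1.26e-04 and an IDR of 0.074, the closest above the threshold among all 17. Replicate 1 had 7 peaks in the window and 6 of them overlapped a peak of replicate 2, against 34.1% in the whole list. Replicate 2 had 11, of which 5 overlapped one of replicate 1, against 30.8% in the whole list. The nearest replicate 2 peak to the Foxd1 start was 310 bp away at a value of 0.0376.

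The stretch downstream of Foxd1 holds few annotated genes. No other protein-coding gene lay within 50 kb of the strongest region; the nearest feature was the pseudogene Gm2445, 10.3 kb away, followed by the long noncoding RNA gene 2310005E17Rik at 32.5 kb. The nearer regions had Btf3, a general transcription factor gene, as their closest other protein-coding gene, 42 and 49.1 kb away on the other side of Foxd1. Just past the window, 52.1 kb from the gene, lay another region found in both replicates (98408775 to 98408914, IDR 0.275).

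Meis1 encodes a homeodomain transcription factor of the TALE class (gene ID 17268, chromosome 11, 18880428 to 19019651, minus strand). It held 1 reproducible region, inside the gene and 37.1 kb from its outermost start (18982379 to 18982789, IDR 0.00339). The values were 1.78e-07 in replicate 1 and 1.13e-08 in replicate 2, so both lists placed it among their stronger peaks, at 3.95% and 6.43% of the ranking. The long noncoding RNA gene Gm16141, which overlaps Meis1, had its nearer end 7.07 kb away, and no other protein-coding gene lay within 50 kb.

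The second region in Meis1 showed how far the replicates can part. At 18892600 to 18892790, 12.3 kb from the other end of the gene, replicate 1 had 5.78e-08, its lowest value in the window, and replicate 2 had 0.00479, giving an IDR of 0.417. Replicate 1 thus ranked it at 3.59% and replicate 2 at 30.1%. Most peaks at Meis1 were not shared: 10 of 12 in replicate 1 and 11 of 13 in replicate 2. Most peaks of the whole lists were not shared either: 34.1% of replicate 1 and 30.8% of replicate 2 were. Beside the outermost start of the gene both replicates had a peak, but not at the same bases. That of replicate 2 (19019741 to 19019978, value 8.00e-04) and that of replicate 1 (19020046 to 19020184, value 0.0314) were separated by 67 bp and so formed no common region.

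Tbx18 encodes a T-box factor of mesenchymal and vascular mural cell precursors (gene ID 76365, chromosome 9, 87702800 to 87731260, minus strand). No region found in both replicates lay in its window, where 57.3% of protein-coding genes had at least 1. Replicate 1 had 2 peaks, at values of 0.0371 and 0.0173. Replicate 2 had a single peak, inside the gene (87730428 to 87730557, value 0.0119), 703 bp from the start. None overlapped, and none had a value below 0.01. The nearest region found in both was 152 kb away (87550701 to 87550877, IDR 0.0807), and the nearest reproducible region 792 kb away. Over all protein-coding genes the median was 3 peaks of replicate 1 and 4 of replicate 2. At least 1 peak of replicate 1 was found for 84.8% of genes, and 2 or more for 68.4%. At least 1 peak of replicate 2 was found for 83.7%.

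Pdgfrb encodes the beta receptor for platelet-derived growth factor, carried by pericytes and mesangial cells (gene ID 18596, chromosome 18, 61045127 to 61085067). Inside the gene 3 regions found in both replicates followed each other with gaps of 238 and 323 bp. The middle one was the strongest (61059421 to 61059916, IDR 0.00263), with values of 7.65e-07 and 4.52e-13 and the same start and end in both lists. The one before it (61058714 to 61059182) had 1.68e-05 and 1.30e-04 and an IDR of 0.0371, the closest below the threshold among the 17. The one after it (61060240 to 61060494) had 0.0136 and 0.0454 and an IDR of 0.53, so 2 of the 3 were reproducible. They lay 13.8 to 15.2 kb from the lower-coordinate end of Pdgfrb. The closest other gene, Gm52351, was at least 14.2 kb away.

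The third reproducible region of this window lay outside Pdgfrb, 10.3 kb below its lower-coordinate end (61034575 to 61034994, IDR 0.00626; values 1.20e-04 and 7.70e-10). It was inside Cdx1, a caudal-type homeobox gene, 1.41 kb from an end of it, and 0.791 kb from Gm52351. On the other side, 7.11 kb past the higher-coordinate end and 13.4 kb from Csf1r, the receptor gene of macrophage growth factor, lay a region on which the replicates parted (61091964 to 61092398). Its value was 4.48e-13 in replicate 2, the lowest of that list in the window, and 0.0215 in replicate 1, the highest of that list in the window; the IDR was 0.452. All 5 peaks of replicate 1 at Pdgfrb overlapped a peak of replicate 2, against 34.1% in the whole list. Of the 15 peaks of replicate 2, 10 had no partner, and in its whole list 30.8% had one. The lowest-valued replicate 2 peak without a partner here (61019339 to 61019754, 7.19e-05) lay inside Cdx1.

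Ren1 encodes renin, the protease that cleaves angiotensinogen (gene ID 19701, chromosome 1, 133350674 to 133360320, plus strand). It had the strongest region of the 6 genes by IDR: 9.40e-06, rank 639 of 17234. The region lay upstream, 6.03 kb before the start of the gene (133344441 to 133344856). The values were 1.48e-19 in replicate 1 and 3.99e-25 in replicate 2, within the first 0.922% and 1.57% of the lists. Both lists gave it the same first base, and the ends differed. The other genes within 50 kb of it were Kiss1, which encodes kisspeptin, 14.9 kb away, Etnk2 at 18.8 kb, Golt1a at 21.6 kb, Sox13, which encodes an SRY-box factor, at 37.7 kb and Plekha6 at 41.2 kb. Ren1 was the closest of all.

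The second region in the Ren1 window was weaker and lay nearer to Etnk2 than to Ren1. It spanned the outermost start of Etnk2 (133363463) through the replicate 2 peak only. The replicate 1 peak ended before that start, at 133363445. The region lay 3.02 kb past the end of Ren1 and 0.119 kb from the start of Etnk2 (133363183 to 133363505), with values of 0.00285 and 0.00396 and an IDR of 0.183. The region covers the Etnk2 sequence printed above, its last bases through replicate 2 only. Around it, each replicate had peaks that the other lacked, the closest pair 63 bp apart. A reproducible region at an end of Sox13 lay outside the window, 64.1 kb from Ren1 (133424224 to 133424545, IDR 0.002). In the other direction, replicate 1 had a peak in Golt1a (133311885 to 133312147, value 4.49e-04) without a partner, its lowest unshared value over all 6 windows.

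Some mouse strains, DBA/2 among them, carry a second renin gene, Ren2, close in sequence to Ren1, and C57BL/6 mice lack it. The gene table places Ren2 outside the chromosome sequence, and the labels give a background with DBA in it. Whether the embryos carried Ren2, and whether reads from it were counted at Ren1, was not tested, so the Ren1 values may hold both.

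Lamc3 encodes the gamma-3 chain of laminin, a basement membrane protein (gene ID 23928, chromosome 2, 31887281 to 31949083). Its single reproducible region was not in the gene but 4.9 kb above its higher-coordinate end (31953804 to 31954158, IDR 0.00285). The values were 4.46e-05 and 1.51e-11. It lay inside Aif1l, an actin-binding protein gene that is the next gene on that side, 3.68 kb from an end of it, and 20.4 kb from Nup214, a nucleoporin gene. Replicate 2 had a further peak just before this region (31953505 to 31953718, value 1.68e-05), its lowest unshared value over all 6 windows.

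Within Lamc3 itself, near its lower-coordinate end, lay a region at 31888489 to 31888750 with values of 3.94e-04 and 6.06e-04 in replicates 1 and 2 and an IDR of 0.122. The values were close, at 9.41% of the ranking in replicate 1 and 18.6% in replicate 2. Replicate 2 also had a peak just outside that end (31886956 to 31887185, value 2.34e-04) without a partner in replicate 1. The third region (31865587 to 31865791) lay 21.6 kb below the gene and 18.7 kb from Fibcd1, with values of 0.0398 and 0.00784 and an IDR of 0.522. Of the peaks at Lamc3, 3 of 5 in replicate 1 and 3 of 13 in replicate 2 were shared, against 34.1% and 30.8% in the whole lists.

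**Figure D3:**
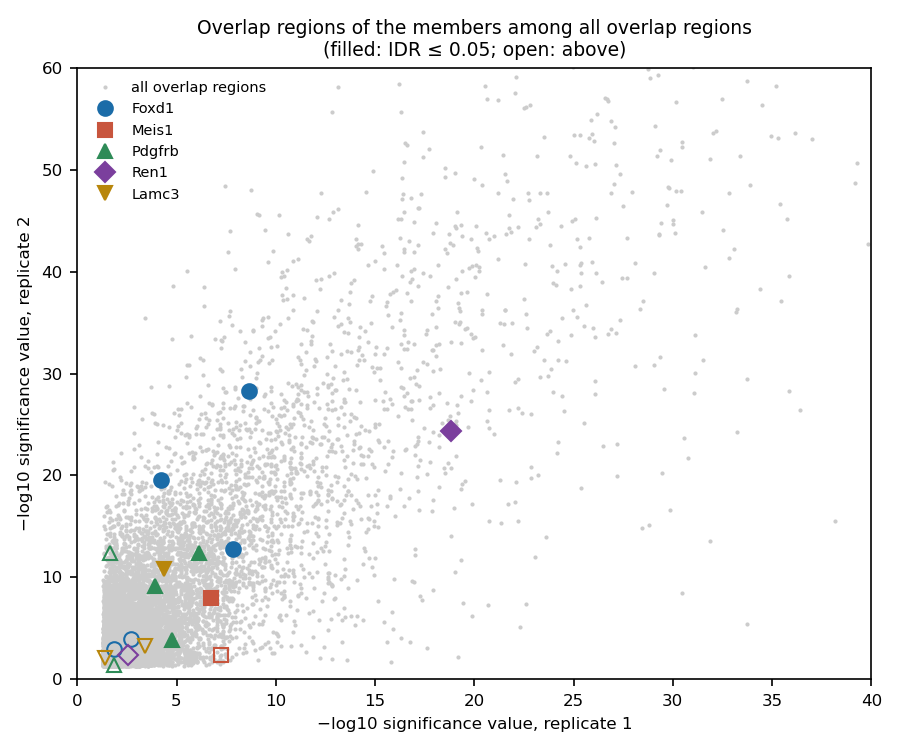
−log10 of the significance value in replicate 1 (horizontal axis) against replicate 2 (vertical axis) for the regions of the 6 genes, filled where reproducible and open where not, over all overlap regions in grey; 45 regions with a value of 0 and 154 beyond the axes are not drawn. The Ren1 region stands farthest to the right, and one Foxd1 region stands higher; the open Meis1 and Pdgfrb points near the axes are the regions with one low and one high value, and Tbx18 has no point.

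Across the 17 regions the value of replicate 2 was the lower in 12, and in 8 of the 9 reproducible ones. The exception was the weaker of the reproducible regions inside Pdgfrb. This is also the state of the whole table, in which 75.4% of all regions and 90.3% of reproducible ones had the lower value in replicate 2, so ranks within each list compare better than values. Of the 17, 7 had the same start base in both lists and 4 the same end, against 39.6% and 39.5% of all regions. Whether these shared bases were cut points of the restriction enzymes was not tested, as no genome sequence was used.

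In all 6 windows together, 18 of 35 peaks of replicate 1 (51.4%) overlapped a peak of replicate 2, against 34.1% in the whole list. In the other direction 17 of 62 did (27.4%), against 30.8%. Shared peaks had lower values. In replicate 1 the median was 5.36e-05 where a peak was shared and 0.0314 where it was not, and in replicate 2 it was 1.13e-08 and 0.0123. Of the replicate 1 peaks, 0 of 2 were shared at Tbx18, 2 of 12 at Meis1 and 5 of 5 at Pdgfrb.

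**Figure D4:**
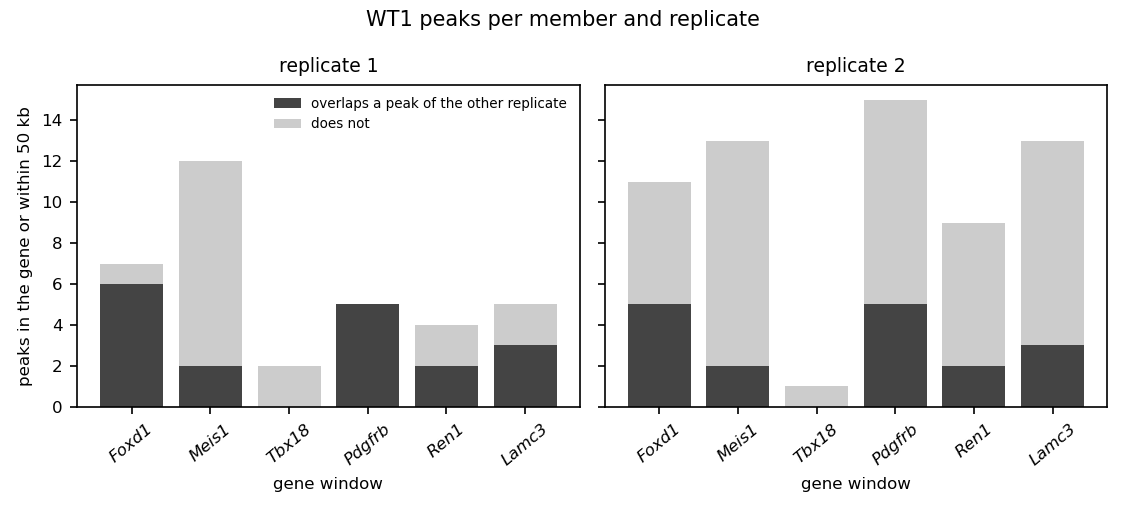
Number of peaks in the gene or within 50 kb (vertical axis) for each gene (horizontal axis) in replicate 1 (left) and replicate 2 (right), split into peaks that overlap a peak of the other replicate (dark) and those that do not (light). Replicate 2 had more peaks at every gene except Tbx18; at Meis1 nearly all bars are light in both, and at Pdgfrb replicate 1 is wholly dark.

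A wider list of 58 stromal and renin cell genes, which includes the 6, was compared over a narrower window of 10 kb. In it 23 genes had a reproducible region in the gene or within 10 kb (39.7%), against 13.6% of protein-coding genes. Without the 6 genes it was 18 of 52 (34.6%). The list was drawn up with earlier results of these data known, some of its genes among them, so the counts are a description and not independent evidence.

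By role, signalling genes of the stroma had a region in 8 of 13 cases and transcription regulators in 6 of 13. The signalling genes included Rara, a retinoic acid receptor gene, with 4 regions, the strongest inside the gene (chromosome 11, 98966622 to 98966984, IDR 7.90e-07, values 5.09e-24 and 1.77e-48). Hedgehog pathway genes among them were Ptch1, the receptor (IDR 2.69e-06), Gli1, a transcriptional effector (IDR 7.95e-06), and Smo, the signal transducer, with 3 regions, the strongest at IDR 2.51e-04. Fat4, an atypical cadherin of the stroma, had 1 inside the gene (IDR 5.18e-05), and its ligand gene Dchs1 had 1 at 0.664 kb (IDR 2.55e-04). The signalling genes Rarb, also a retinoic acid receptor gene, Aldh1a2, Agtr1a, Fgf7 and Fgf10 had none within 10 kb.

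Among transcription regulators, Hoxd11 had 1 at IDR 5.09e-04. The regulators without one within 10 kb were Tcf21, Meis2, Tbx18, Sall1, Ebf1, Snai2 and Hoxa11. Of 18 mural, mesangial and renin cell genes 6 had a region. Those without one within 10 kb were Akr1b7, Rbpj, Crebbp, Gja5, Acta2, Tagln, Rgs5, Cspg4, Myh11, Itga8, Pdgfra and Gata3. Gnas, which encodes the G protein subunit that stimulates cyclic AMP production, had 1 inside the gene (chromosome 2, 174343011 to 174343485, IDR 1.30e-06, values 3.02e-25 and 5.19e-27). Matrix and secreted factor genes had the fewest, 3 of 14, with Lamc3, Igfbp5 and Lama4. Those without one within 10 kb were Col1a1, Col1a2, Col3a1, Dcn, Lum, Postn, Fn1, Ntn1, Smoc2, Penk and Ecm1. By IDR, the Ren1 region came behind those of Rara, Gnas, Ptch1 and Gli1 on this list.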

How the data were processed

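Peak lists of 2 WT1 ChIP-seq samples and the table of their common regions were used. Per the submitters' processing notes the build is mm10; which aligner and caller were run, and whether IgG reads were used, was not given in the sources used here. Per the labels' protocols, libraries went through 18 rounds of PCR. The deposited value per peak, taken as a p-value or q-value, and the value per region, read as an IDR, are the authors' own. Every region of the table spans its overlapping peaks from outer edge to outer edge. BED starts were made 1-based. Genes came from a RefSeq table (GRCm38.p6); 121 of 21900 protein-coding entries, not on chromosomes 1 to 19, X or Y or ending below 3 Mb except on Y, were left out. Peaks were shared when they overlapped by 1 bp. Counting functions were tested on simulated data (Python 3.11.15, pandas 2.3.3). No test across genes was run. Named are the 6 genes, neighbours of their regions, and up to 10 list genes with the lowest IDR. Also named are the matrix genes counted and the list genes of every role without a region within 10 kb. The list genes to name were chosen after their values were seen. A result for 1 of the list genes is not reported here. Members and lists were chosen with earlier results of these data known. The pair of replicate lists may differ in depth, which the lists do not give. Within promoter windows, 24.2% of replicate 1 and 16.9% of replicate 2 peak starts lay exactly at an AluI cut point, against 0.333% and 0.0659% at a point 10 bases away. No genome sequence was used, so the regions themselves are not printed. Alternatives were other IDR thresholds, windows and overlap rules, and each replicate alone.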

Additional observations from a re-analysis of the deposited data

How the results depend on the processing

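The count of 5 genes with a reproducible region was 5 at IDR thresholds of 0.01 and 0.1, with all overlapped regions, with windows of 10 and 100 kb, and from the 4411 peaks with the smallest values of either replicate alone. It was 4 when regions inside another protein-coding gene were left out, an alternative chosen after seeing the data, which removes Lamc3. The share of all protein-coding genes was 26.2% in the main setting, 57.3% with all overlapped regions and 13.6% within 10 kb. The looser threshold, all overlapped regions and the 100 kb window could not lower the count. Nor could they raise it, because the nearest region found in both replicates was 152 kb from Tbx18. The 9 reproducible regions became 17 with all overlapped regions, and otherwise ran from 7 to 13. From replicate 2 alone and replicate 1 alone the numbers of top peaks were 9 and 11. The 18 shared replicate 1 peaks were 15 when each peak had to be covered to at least 50%. The list count of 23 ran from 17 to 29. No paired analysis was possible because the results come from no test. With 2 samples and no read counts, a missing peak at Tbx18 does not show that WT1 was absent there.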

Other observations

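Peak edges within promoter windows were set against the cut points of the enzymes named in the labels. At HaeIII cut points lay 0.556% of replicate 1 starts and 0.725% of replicate 2 starts, against 1% and 0.396% at a point 10 bases away. At MseI cut points lay 6.22% and 5.47%, against 0% for both. At AluI cut points lay 24.2% of 900 replicate 1 starts and 16.9% of 1517 replicate 2 starts. For ends, AluI gave 21% in replicate 1 and 15.6% in replicate 2, against 0.232% and 0.274% at a point 10 bases away. HaeIII gave 0.348% and 1.58%, against 0.579% and 0.617%. MseI gave 5.79% and 5.49%, against 0% for both. The labels do not tie an enzyme pair to a sample.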
